A study of Citrus x clementina and Citrus japonica with 6 samples.

Results

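The gene models described here were detected in fruit of kumquat and were at or near 0 in fruit of Clementine mandarin. A model was taken as kumquat-only if it had at least 10 FPKM in each of 3 kumquat libraries and at most 0.5 FPKM in each of 3 clementine libraries. FPKM is the number of sequenced fragments scaled to the length of the model and to the size of the library, so levels are per length and can be compared between models. The rule kept 47 of 30139 gene models, or 0.156%. The members were thus chosen by their measured FPKM in these same 6 libraries. The same rule with the species exchanged kept 81 models, or 0.269%. The model identifiers carry clementine locus numbers, so both species were measured on gene models of clementine. Kumquat reads that differ from the clementine sequence may be lost or counted on another model. How they were handled is not stated, and their part in the levels and counts below was not tested.

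Bulk RNA of whole fruit was sequenced from Citrus x clementina (Clementine mandarin) and from Citrus japonica (kumquat), with 3 libraries per species, no treatment and no stated genetic change. Each library pooled fruit of 5 developmental stages, counted in days from flowering. The earliest stages were the same in both species, at days 15, 30 and 45. The later ones were day 100 and day 180 for clementine, and day 80 and day 120 for kumquat. The species and the ages at which its fruit was taken therefore cannot be told apart, and a pool gives no value for a single stage. Per the design text, plant material came from 3 individual plants, but no source used here ties a library to a plant, so the spread between libraries may be partly technical. The kumquat libraries carry a stage label worded for clementine, with the kumquat days.

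Gene families in plants grow by duplication, so a fruit usually holds several models for an enzyme or regulator. Related species can differ in which copy of a family is transcribed, and a locus can also be split into several models that code for nearly the same protein. A model seen in only 1 of 2 species may therefore stand beside other models with the same protein match, or beside other members of its family, that are present in both. For that reason each kumquat-only model is described with the models that share its protein match (match partners) and with the other models that share its KEGG orthology identifier (KEGG peers).

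Summed FPKM per library ran from 691560 to 707892, and 25523 to 26285 models were above 0. Relative depth, taken from the most frequent ratio between libraries among low values and set to 1.0 in clementine 2, was 0.956 and 1.0 in the other clementine libraries and 0.874, 0.919 and 0.928 in kumquat. The total depth is unknown. Of 22050 models that reached 1 FPKM in 3 or more of the libraries, 57.1% were called different between the species by limma at an adjusted p under 0.05, 29.9% higher and 27.1% lower in kumquat. Marker lists of tissues and of microbes were compared too, and the sums of some lists differed while those of others overlapped. The 3 seed storage and oil body models summed to 643.7 to 808.0 FPKM in clementine and 2467.6 to 2971.0 FPKM in kumquat, and all 3 were called higher in kumquat. Of 56 tested photosystem and antenna models, 6 were higher and 29 lower in kumquat, with sums of 11471.8 to 12582.6 FPKM in clementine and 9765.3 to 10903.6 FPKM in kumquat. Of 56 tested models of lignified and vascular tissue, 8 were higher and 33 lower, with overlapping sums of 1515.0 to 1608.0 FPKM in clementine and 1465.2 to 1610.8 FPKM in kumquat. The 3 oil gland models summed to 18.3 to 20.3 FPKM in clementine and 41.3 to 42.8 FPKM in kumquat, with 1 of 2 tested models higher and 1 lower. The 9 models with microbial or viral names summed to 76.5 to 82.4 FPKM in clementine and 79.4 to 82.2 FPKM in kumquat, with 2 higher and 2 lower of 8 tested. None of these lists had a marker at 0 in all libraries, and none held a kumquat-only model. The seed list did not search for glutelin names, so it left out the kumquat-only Ciclev10001588m, whose match is a glutelin-like protein. The part of tissue composition in the levels below was not tested, and in bulk fruit fewer cells of a type and less RNA per cell cannot be told apart.

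All 47 kumquat-only models were tested, and all passed the filter on low values through kumquat alone, so their own difference between species follows from the rule and is given as a description with no test. Together they summed to 1742.4, 1836.4 and 1842.2 FPKM in the kumquat libraries, which was 0.252%, 0.261% and 0.26% of all FPKM there. In clementine they summed to 4.98, 3.31 and 4.66 FPKM. Their mean levels in kumquat ran from 10.6 to 127.4 FPKM with a median of 31.3 FPKM, and 10 models reached a mean of 50 FPKM while 15 stayed under 20 FPKM. In clementine, 18 of the 47 were listed at 0 in every library, 29 were above 0 in at least 1 library and 8 were above 0 in all 3. A listed 0 can be a failed estimate, so no fold change is given for these models.

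**Figure D1:**
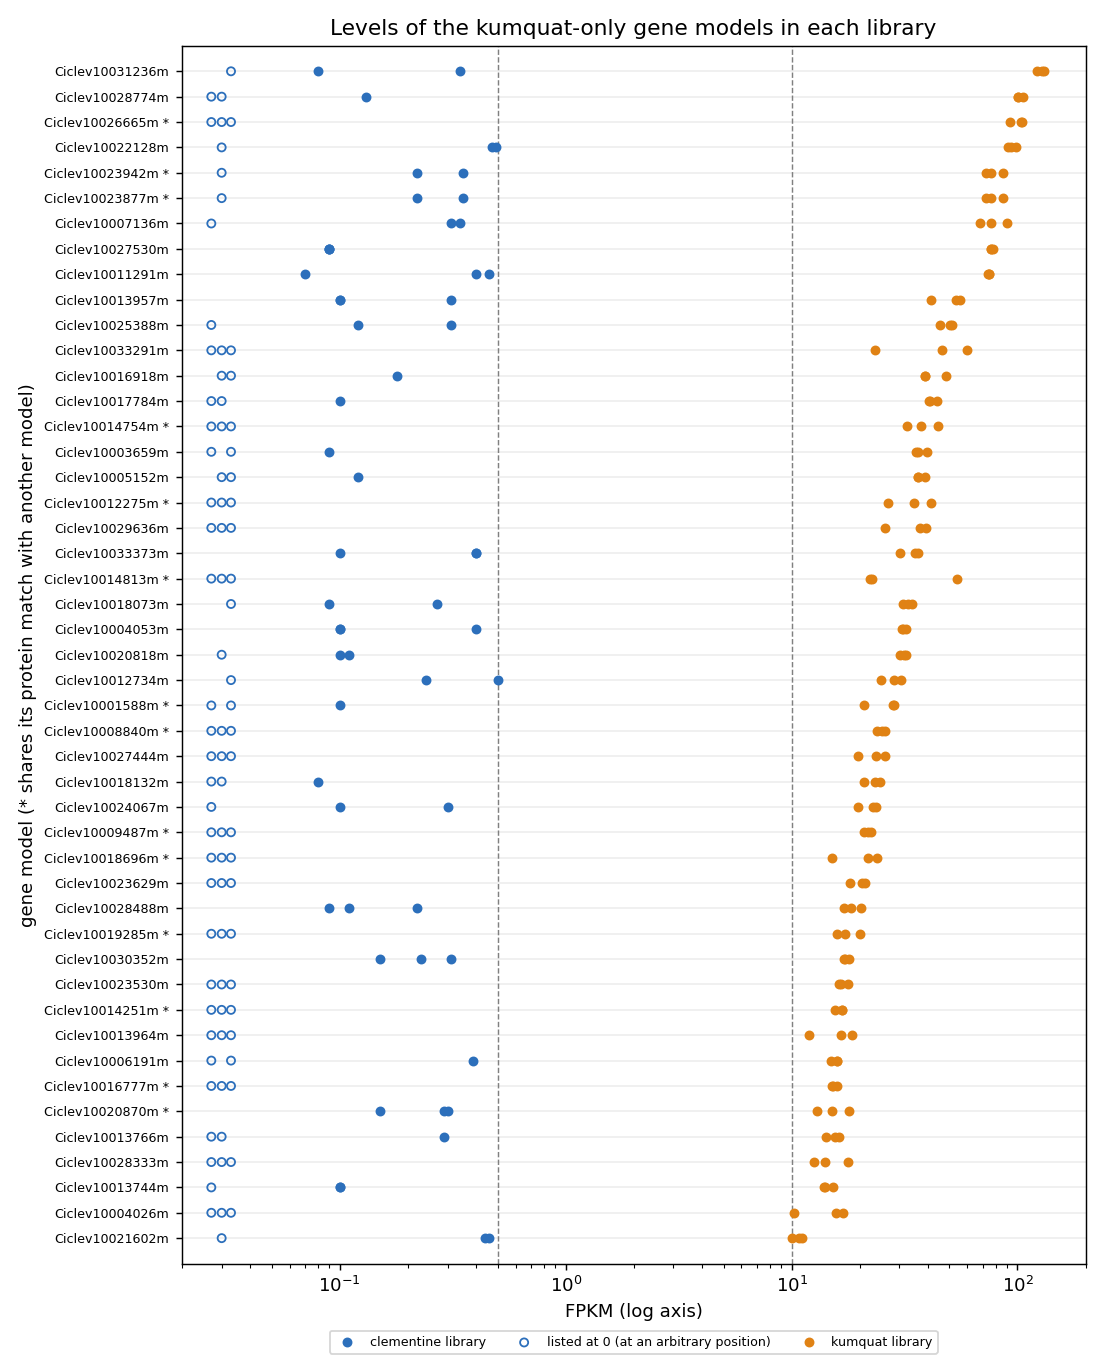
FPKM of each of the 47 kumquat-only gene models (rows, ordered by mean kumquat level) on a log axis, 1 point per library, with dashed lines at the limits of 0.5 and 10 FPKM. Filled points are measured values, open points are clementine libraries listed at 0 and drawn at an arbitrary position, and an asterisk marks a model that shares its protein match. The kumquat points of most rows lie close together, and those of Ciclev10014813m and Ciclev10033291m spread widest.

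The models nearest to the limits show how sharp the choice was. On the kumquat side, the lowest library was at 10.05 FPKM for Ciclev10021602m, 10.22 FPKM for Ciclev10004026m and 11.94 FPKM for Ciclev10013964m. Just outside were Ciclev10027043m at 9.91 FPKM, Ciclev10031062m at 9.72 FPKM and Ciclev10018550m at 9.26 FPKM. On the clementine side, the highest library was at 0.5 FPKM for Ciclev10012734m, 0.49 FPKM for Ciclev10022128m and 0.46 FPKM for Ciclev10021602m. Just outside were Ciclev10002694m at 0.52 FPKM, Ciclev10015986m at 0.53 FPKM and Ciclev10019799m at 0.57 FPKM. The set thus has no gap at either limit.

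Annotation of the 47 models was close to that of the whole table. A KEGG orthology name was given for 38 of them, or 80.9%, against 75% of all models. At least 1 GO term was given for 17, or 36.2%, against 35.5% of all models. A molecular function was given for 31.9% of them and 29.9% of all models, a biological process for 19.1% and 23.6%, and a cellular component for 8.51% and 13.7%. The GO term held by the most kumquat-only models was iron ion binding, in 4 models that are all cytochrome P450s, followed by metabolic process in 3. No other term was held by more than 1. The protein match was a hypothetical protein for 45 models, and 3 of all matches were partial. In 36 models, or 76.6%, the match carried the model's own locus number, against 62.7% of all models. In 7 it carried the number of another clementine model that shares the match, and 4 models matched a protein of Citrus sinensis (sweet orange). Whether models that share a match are separate genes or transcripts of the same gene is not given.

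By function, 15 models were metabolic enzymes, 5 cytochrome P450s, 4 transcription or chromatin proteins and 3 signalling or protein interaction proteins. Ribosomal proteins, protein folding and turnover, transport, and cell wall or polysaccharide hydrolysis had 2 models each, and RNA processing had 1. The KEGG names of 3 models conflicted with each other or with the protein match, and 8 models had neither a KEGG name nor a GO term. No kumquat-only model carried a disease resistance, transposon, protein kinase or receptor annotation. The shares of these functional classes among all gene models were not counted. Whether the class counts, or the absence of a class, are particular to the kumquat-only models is therefore not known.

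Cytochrome P450s are heme enzymes that oxidise small molecules and act throughout plant hormone, pigment and terpenoid pathways. The most abundant kumquat-only model of all, Ciclev10031236m, was of this family. It was at 0.34, 0.08 and 0 FPKM in the clementine libraries and at 122.29, 128.48 and 131.36 FPKM in the kumquat libraries. The closest KEGG name of this model is an animal steroid monooxygenase, which is a family assignment and not a function known in citrus. Ciclev10018132m and Ciclev10028488m carry that name as well. Ciclev10018132m was at 0, 0 and 0.08 FPKM in clementine and at 24.51, 20.93 and 23.45 FPKM in kumquat. For Ciclev10028488m the clementine values were 0.09, 0.11 and 0.22 FPKM and the kumquat values 20.3, 17.12 and 18.29 FPKM. These 3 models belong to a family of 108 models, in which 39 of 75 tested KEGG peers were called higher in kumquat and 23 lower.

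Ciclev10025388m carries, among its KEGG names, that of flavonoid 3'-monooxygenase, which hydroxylates the B ring of flavonoids. It was at 0, 0.31 and 0.12 FPKM in clementine and at 45.6, 51.1 and 50.38 FPKM in kumquat. Among the 3 tested KEGG peers with the flavonoid monooxygenase identifier, the most abundant in clementine, Ciclev10019637m, fell from 444.6 ± 1.11 FPKM in clementine to 115.0 ± 7.57 FPKM in kumquat (SD, n = 3 each; log2 change -1.94, limma adjusted p = 3.72e-07). A further peer, Ciclev10025378m, fell from 19.6 ± 1.38 to 0.17 ± 0.0436 FPKM, a log2 change of -4.13, and Ciclev10025392m rose from 5.85 ± 0.09 to 15.9 ± 1.13 FPKM, a log2 change of 1.30. The models of this identifier together had 470.3 ± 0.486 FPKM in clementine and 181.2 ± 5.2 FPKM in kumquat. The sum for this identifier was thus lower in the species that showed the additional model. The other identifiers of Ciclev10025388m, of cytochrome P450 family 1, did not all go that way. Their sums in clementine and kumquat were 194.4 and 261.2 FPKM, 192.9 and 252.9 FPKM, and 397.8 and 361.9 FPKM. The peers named here and below were chosen after their values were seen.

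The last P450, Ciclev10028333m, is named hydroperoxide dehydratase, also called allene oxide synthase, the enzyme that commits lipid hydroperoxides to jasmonate synthesis. In clementine all libraries listed it at 0, and it was at 17.84, 14.03 and 12.54 FPKM in kumquat. The table holds 1 other model of that name, Ciclev10000825m, which was lower in kumquat at 24.6 ± 0.717 FPKM than in clementine at 32.0 ± 1.17 FPKM (log2 change -0.37, limma adjusted p = 0.00211). The kumquat-only model held 37.6% of the kumquat level of this pair.

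Among the metabolic enzymes, 3 models carry names of glycosyltransferases, which attach sugars to small molecules, and 3 of acyltransferases. Ciclev10007136m is named as a UDP-glucose glucosyltransferase of indole-3-acetic acid, the main auxin. It was at 0, 0.31 and 0.34 FPKM in clementine and at 68.49, 90.23 and 75.96 FPKM in kumquat. Its match is partial. The family sum was 217.6 ± 4.75 FPKM in clementine and 921.3 ± 22.8 FPKM in kumquat, and most of that came from a KEGG peer, Ciclev10012482m, which rose from 6.27 ± 2.73 to 648.8 ± 23.1 FPKM (SD, n = 3 each; log2 change 6.55, limma adjusted p = 7.31e-07). Of the 11 tested peers, 4 were higher and 5 lower in kumquat.

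The pair of glycosyltransferases Ciclev10017784m and Ciclev10033373m carried names from anthocyanin decoration, the attachment of further sugars to pigment glucosides. These names do not settle the sugar or the acceptor. Ciclev10017784m also has a GO term for UDP-glucosyltransferase activity. Ciclev10030045m, a KEGG peer of Ciclev10033373m, also carries the name of a flavanone glucoside rhamnosyltransferase. Ciclev10017784m, named as a xylosyltransferase, was at 0, 0 and 0.1 FPKM in clementine and at 40.58, 43.85 and 40.83 FPKM in kumquat. It held 83.9% of the kumquat level of its 4-model family. Its KEGG peer Ciclev10004868m was at 689.72, 712.43 and 707.32 FPKM in clementine and at 4.33, 3.64 and 3.3 FPKM in kumquat, a log2 change of -7.22 (limma adjusted p = 1.9e-08). A second peer, Ciclev10015186m, was also lower, with a log2 change of -1.45, and Ciclev10008184m did not pass the test at 1.6 ± 0.705 FPKM in clementine and 2.39 ± 0.322 FPKM in kumquat. The clementine and kumquat libraries thus differed in which of these clementine models had the highest FPKM. The family sum was 711.6 ± 12.6 FPKM in clementine and 49.8 ± 2.07 FPKM in kumquat.

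Ciclev10033373m, named as a glucuronosyltransferase, was at 0.1, 0.4 and 0.4 FPKM in clementine and at 35.16, 36.45 and 30.17 FPKM in kumquat. It held 99.8% of the kumquat level of its 4-model family. All 3 KEGG peers were lower in kumquat: Ciclev10030045m was at 9.05, 9.32 and 12.52 FPKM in clementine and listed at 0 in all kumquat libraries (limma adjusted p = 4.87e-06), Ciclev10033610m averaged 3.62 ± 1.13 FPKM in clementine and was listed at 0 in kumquat, and Ciclev10030271m averaged 1.73 ± 0.607 FPKM in clementine and 0.0733 ± 0.0635 FPKM in kumquat. The family sums were 16 ± 3.67 FPKM in clementine and 34 ± 3.28 FPKM in kumquat.

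Ciclev10027530m, Ciclev10004053m and Ciclev10024067m were named as an acyltransferase that attaches ferulate to omega-hydroxypalmitate, a step of suberin assembly, and the first and second also as an alcohol benzoyltransferase. Ciclev10027530m was at 0.09 FPKM in every clementine library and at 76.46, 77.97 and 76.57 FPKM in kumquat. Ciclev10004053m was at 0.4, 0.1 and 0.1 FPKM in clementine and at 32.03, 31.26 and 30.68 FPKM in kumquat, and Ciclev10024067m at 0, 0.1 and 0.3 FPKM and at 22.83, 23.66 and 19.62 FPKM. Each of them has a protein match of its own. The feruloyl transferase family of 56 models summed to 564.1 ± 39.2 FPKM in clementine and 1307.6 ± 18.3 FPKM in kumquat, with 13 of 29 tested peers higher and 10 lower. The peer with the highest level over both species, Ciclev10011796m, rose from 77.5 to 394.5 FPKM (log2 change 2.33, limma adjusted p = 2.48e-07).

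Ciclev10011291m carries the KEGG name aldehyde decarbonylase, the enzyme that forms the alkanes of cuticular wax. Its clementine values were 0.4, 0.07 and 0.46 FPKM, and its kumquat values of 74.76, 75.12 and 74.0 FPKM were the closest together of all 47 models, with a coefficient of variation of 0.766%. It held 51.1% of its 5-model family in kumquat. Of its 4 peers, Ciclev10007738m was higher in kumquat with a log2 change of 1.84 and Ciclev10019265m with one of 0.52, Ciclev10019279m was lower with one of -0.60, and Ciclev10019665m did not pass the test. The family sum was 63.6 ± 1.72 FPKM in clementine and 146.1 ± 2.07 FPKM in kumquat.

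Ciclev10028774m, named branched-chain amino acid aminotransferase, was the second most abundant kumquat-only model. That enzyme moves amino groups in the synthesis and breakdown of leucine, isoleucine and valine. It was at 0, 0 and 0.13 FPKM in clementine and at 106.07, 100.5 and 100.33 FPKM in kumquat. In kumquat it was the most abundant of the 18 models of its family and held 24.3% of their sum, which was 260.0 ± 6.3 FPKM in clementine and 420.6 ± 10.3 FPKM in kumquat. Of 12 tested peers 5 were higher, 3 lower and 4 not called. Of those peers, Ciclev10001791m was listed at 0 in every clementine library and at 8.7, 13.13 and 20.97 FPKM in kumquat, which the kumquat minimum of the rule left out.

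The methyltransferase Ciclev10020818m was at 0.11, 0 and 0.1 FPKM in clementine and at 30.24, 32.16 and 31.45 FPKM in kumquat. It carries the names of caffeic acid O-methyltransferase, a lignin pathway enzyme, and of anthranilate N-methyltransferase. Only 2 models carry the latter name, and the other, Ciclev10020782m, was also higher in kumquat at 2.33 ± 0.24 FPKM than in clementine at 0.327 ± 0.335 FPKM (limma adjusted p = 0.00178). The reductase Ciclev10012734m, named tropinone reductase, was at 0.5, 0.24 and 0 FPKM in clementine and at 24.79, 28.29 and 30.41 FPKM in kumquat. Ciclev10018073m had no KEGG name but a GO term for an oxidoreductase that uses oxygen as acceptor, and was at 0.09, 0.27 and 0 FPKM in clementine and at 32.88, 31.06 and 34.15 FPKM in kumquat. The remaining 4 metabolic enzymes share their protein match and are described with their partners.

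Among the proteases and hydrolases, Ciclev10013957m is named legumain, a vacuolar protease that processes proteins after asparagine. It was at 0.31, 0.1 and 0.1 FPKM in clementine and at 41.22, 53.17 and 55.77 FPKM in kumquat, the first kumquat library being the lowest. Legumains act on seed storage proteins, and the 3 seed models were higher in kumquat as given above, but the part of seed tissue was not tested. Its KEGG peer Ciclev10008097m rose from 508.4 ± 20.8 to 962.3 ± 55.2 FPKM (SD, n = 3 each; log2 change 0.92, limma adjusted p = 1.68e-05), and 4 of 6 tested peers were higher and 1 lower. Ciclev10005152m, named alpha-L-fucosidase, was at 0.12, 0 and 0 FPKM in clementine and at 36.3, 38.83 and 36.21 FPKM in kumquat. That identifier is held by 70 models, so the name is a family assignment and its function is not settled. The chitinase Ciclev10021602m was the least abundant kumquat-only model, at 0.46, 0 and 0.44 FPKM in clementine and 10.79, 11.07 and 10.05 FPKM in kumquat, and it held 0.205% of a family of 91 models.

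The 2 ribosomal proteins were alone in their match and had no clementine library above 0. Ciclev10033291m, protein L37e of the large subunit, was at 23.45, 46.54 and 59.55 FPKM in kumquat, and Ciclev10029636m, protein L36e, at 25.98, 36.96 and 39.28 FPKM. Both were lowest in the first kumquat library. Their KEGG peers were present in both species: Ciclev10026841m (L37e) averaged 433.5 ± 81.1 FPKM in clementine and 547.8 ± 122.8 FPKM in kumquat, and Ciclev10006271m (L36e) 476.9 ± 69.9 and 561.0 ± 70.8 FPKM, neither of them called by limma (adjusted p = 0.194 and 0.163). Without kumquat library 1 the difference of Ciclev10026841m passed, at an adjusted p of 0.0256. The most abundant peer was lowest in the first library of each species as well, at 340.59 and 405.97 FPKM for Ciclev10026841m. The kumquat-only models held 6.46% and 4.24% of the kumquat sums of their families. Ribosomal proteins have near-identical copies, so reads may be split between models.

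Transport and signalling models were alone in their match. Ciclev10016918m, named SEC23, a coat subunit of vesicles that leave the endoplasmic reticulum, was at 0.18, 0 and 0 FPKM in clementine and at 38.86, 48.47 and 38.87 FPKM in kumquat. The peptide and histidine transporter Ciclev10030352m was at 0.31, 0.15 and 0.23 FPKM in clementine and at 17.07, 17.27 and 18.01 FPKM in kumquat. Ciclev10003659m and Ciclev10004026m carry the name of an ankyrin repeat phosphatase subunit, a name that in plants marks ankyrin repeat proteins of many kinds. Ciclev10003659m was at 0, 0.09 and 0 FPKM in clementine and at 36.18, 39.66 and 35.53 FPKM in kumquat. Ciclev10004026m was listed at 0 in clementine and was at 10.22, 16.86 and 15.67 FPKM in kumquat. Ciclev10023530m, with the name of a Rac family small GTPase, was listed at 0 in clementine and was at 16.26, 16.5 and 17.74 FPKM in kumquat.

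Of the 4 transcription and chromatin proteins, 2 were alone in their match. Ciclev10013766m, named EREBP-like factor, the family of ethylene response factors, was at 0, 0 and 0.29 FPKM in clementine and at 14.2, 16.2 and 15.64 FPKM in kumquat, 0.518% of a family of 91 models. Ciclev10013744m, named nucleosome assembly protein, a histone chaperone, was at 0, 0.1 and 0.1 FPKM in clementine and at 15.31, 13.91 and 14.09 FPKM in kumquat. In its family 7 of 9 tested peers were lower in kumquat and 1 higher. Ciclev10011481m showed the greatest fall of those peers on the log2 scale, from 64.3 ± 6.21 to 4.12 ± 0.835 FPKM, a log2 change of -3.68.

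Each of 3 abundant models carries KEGG names of different proteins, and only Ciclev10022128m has a named protein match beside them. Ciclev10022128m has a KEGG name of a vesicle sorting protein and of a SET and MYND domain protein, while its protein match is a germin-like protein, an extracellular protein of the cupin fold. It was at 0.49, 0 and 0.47 FPKM in clementine and at 98.53, 93.63 and 90.98 FPKM in kumquat. Ciclev10023942m and Ciclev10023877m carry the same KEGG names and both match the hypothetical protein of the locus of Ciclev10023942m. Their values were identical in all 6 libraries, at 0.35, 0 and 0.22 FPKM in clementine and at 86.57, 72.41 and 76.15 FPKM in kumquat. They therefore count as 1 measurement, and the 47 models hold 46 distinct sets of values. Across all rows, 72 models with at least 1 FPKM had values identical to those of another model.

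Whether a kumquat-only model shares its protein match with another model was then counted. Of the 47 models, 14 shared it, or 29.8%, against 12986 of 30139 models in the table, or 43.1%. The other 33 were alone. The pair with identical values shared a match only with each other, and the other 12 had 1 to 3 match partners outside the set, 16 partners in all. For 10 of the 12, or 21.3% of all kumquat-only models, a partner averaged at least 10 FPKM in clementine. Under the reverse rule 39 of 81 clementine-only models shared their match, or 48.1%, and 28, or 34.6%, had a partner at 10 FPKM or more in kumquat. The difference between these shares was not tested. Models at 0 throughout clementine made up 10 of the 14 that shared a match and 8 of the 33 that were alone.

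The rule did not use the values of the match partners, and these were tested. Reads may be divided between models of a match, so a partner's level can depend on that of the kumquat-only model. The partner counts are therefore not independent of the rule, and the part of read division was not tested. Of 16 partners 15 passed the filter, and limma called 5 higher (33.3%, against 29.9% of all tested models) and 9 lower in kumquat (60%, against 27.1%), with 1 not called. With the match taken by protein accession alone, an alternative chosen after seeing the data, 4 were higher and 5 lower. Under the main definition their median log2 change was -1.05, against 0.04 over all tested models. Several partners belong to the same match, so these are 12 matches and not 16 independent cases. When the models of a match were summed, 11 kumquat-only models had at least 1 FPKM in clementine, and for 9 of them the sum differed by less than 2-fold between the species. These sums hold the kumquat-only models themselves and are given as a description.

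**Figure D2:**
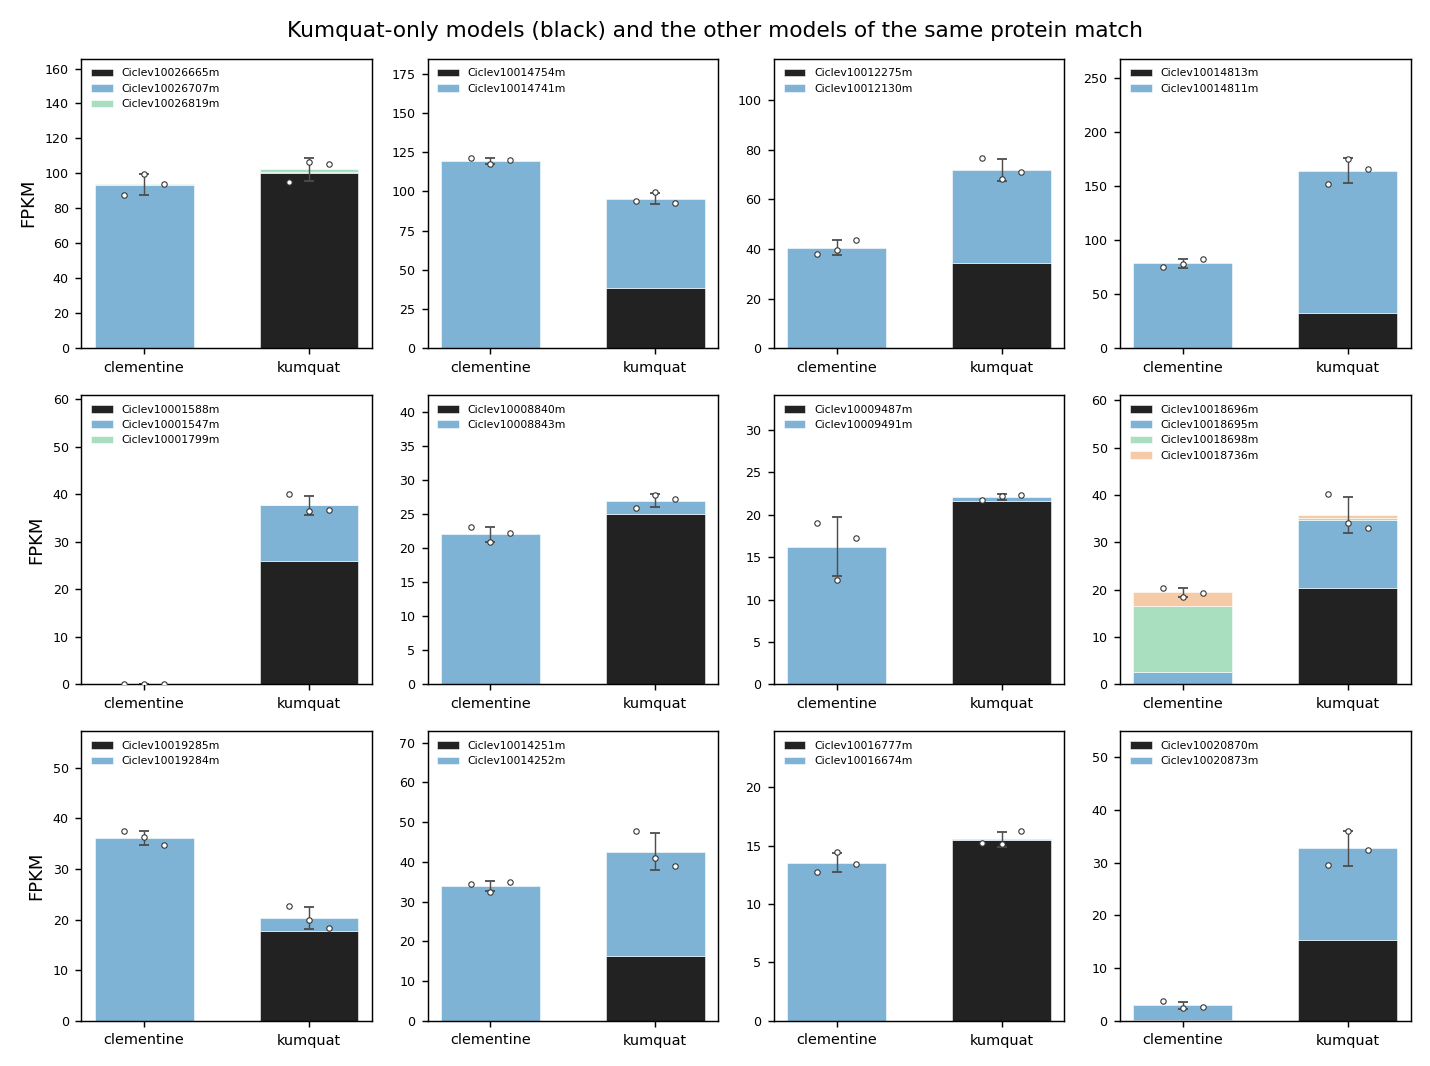
Mean FPKM in clementine and kumquat (n = 3 libraries each) of the 12 kumquat-only models that have a match partner outside the set (black) stacked with their partners (colours), with the sum of each library as a point and its SD as an error bar. For Ciclev10026665m, Ciclev10008840m, Ciclev10009487m and Ciclev10016777m the bars are of similar height and change from colour to black, while for Ciclev10001588m no colour is visible in clementine.

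In 4 matches the partner was at over 10 FPKM in clementine and at or under 2.11 FPKM in kumquat, and the sums were within 1.5-fold. Ciclev10026665m, whose KEGG name is PAX-interacting protein, was at 0 in each clementine library and at 92.6, 104.24 and 103.93 FPKM in kumquat. Its partner Ciclev10026707m had the opposite pattern, at 87.1, 99.26 and 93.13 FPKM in clementine and 1.19, 0.85 and 0.28 FPKM in kumquat (log2 change -5.76, SE 0.193, limma adjusted p = 6.31e-07). The match summed to 93.6 ± 5.99 FPKM in clementine and 102.3 ± 6.54 FPKM in kumquat, a ratio of 1.09. The minor partner Ciclev10026819m rose from 0.47 ± 0.104 to 1.3 ± 0.269 FPKM (limma adjusted p = 0.0248), a call that was lost without clementine library 2 (adjusted p = 0.0671), kumquat library 2 (0.0799) or kumquat library 3 (0.0646).

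Ciclev10016777m and Ciclev10016674m share a match named protein kinase C substrate 80K-H, known in animals as the beta subunit of glucosidase II, which trims sugars of new glycoproteins. Ciclev10016777m was listed at 0 in clementine and was at 15.21, 15.17 and 15.94 FPKM in kumquat. Ciclev10016674m was at 12.76, 14.42 and 13.43 FPKM in clementine and at 0, 0 and 0.34 FPKM in kumquat, a log2 change of -3.72 (limma adjusted p = 3.43e-06). This is the 1 match in the table that holds both a kumquat-only and a clementine-only model, and its sums of 13.5 ± 0.835 and 15.6 ± 0.63 FPKM had a ratio of 1.15.

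The other 2 matches of this kind had no annotation beyond a hypothetical protein. Ciclev10008840m was listed at 0 in clementine and at 23.84, 26.03 and 25.16 FPKM in kumquat, and its partner Ciclev10008843m at 23.04, 20.85 and 22.18 FPKM in clementine and 2.11, 1.76 and 2.03 FPKM in kumquat (log2 change -2.96, limma adjusted p = 1.3e-06). Ciclev10009487m was listed at 0 in clementine and at 21.72, 20.94 and 22.36 FPKM in kumquat, and its partner Ciclev10009491m at 19.0, 12.31 and 17.3 FPKM in clementine and 0, 1.22 and 0 FPKM in kumquat (log2 change -3.70, limma adjusted p = 7.92e-05). The ratios of the match sums were 1.22 and 1.36.

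Ciclev10019285m has names of D-3-phosphoglycerate dehydrogenase, the first enzyme of the phosphorylated route to serine, of hydroxypyruvate reductase and of C-terminal binding protein. The last name is held by only 2 models and each of the others by 15, so which of them applies is not settled. Ciclev10019285m was listed at 0 in clementine and was at 20.06, 17.23 and 15.85 FPKM in kumquat. Its partner Ciclev10019284m fell from 36.2 ± 1.42 to 2.64 ± 0.0681 FPKM (SD, n = 3 each; log2 change -3.35, limma adjusted p = 2.8e-07). The partner fell by more FPKM than the kumquat-only model reached, and the match sum was 36.2 ± 1.42 FPKM in clementine and 20.4 ± 2.21 FPKM in kumquat, a ratio of 0.563.

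In Ciclev10018696m, an RNA helicase named DOB1, which acts with the exosome in RNA decay in yeast, the match holds 4 models. The kumquat-only model was listed at 0 in clementine and was at 21.83, 15.17 and 23.9 FPKM in kumquat. Ciclev10018698m was at 15.52, 12.65 and 13.53 FPKM in clementine and at 0, 0.94 and 0 FPKM in kumquat, a log2 change of -3.57. Ciclev10018736m was lower in kumquat as well, with a log2 change of -1.19, whereas Ciclev10018695m rose from 2.69 ± 1.16 to 14.5 ± 5.17 FPKM, a log2 change of 2.05 (limma adjusted p = 0.00111). The match sum had a ratio of 1.84.

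In 4 further matches the partner stayed abundant in both species. Ciclev10014754m is named glucose-1-phosphate adenylyltransferase (ADP-glucose pyrophosphorylase), which makes the sugar donor of starch synthesis. It was listed at 0 in clementine and was at 32.39, 44.58 and 37.27 FPKM in kumquat, and its partner Ciclev10014741m fell from 119.4 ± 2.03 to 57.4 ± 3.68 FPKM (log2 change -1.05, SE 0.06, limma adjusted p = 7.09e-06). The match sum was lower in kumquat, with a ratio of 0.799. Of the 3 tested KEGG peers of this enzyme, 2 were also lower and none was higher.

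Ciclev10014251m, named trehalose 6-phosphate synthase/phosphatase, a source of the sugar signal trehalose 6-phosphate, was listed at 0 in clementine and was at 16.78, 16.67 and 15.51 FPKM in kumquat. Its partner Ciclev10014252m was at 34.34, 32.55 and 34.99 FPKM in clementine and at 31.08, 24.23 and 23.38 FPKM in kumquat, a log2 change of -0.37 (limma adjusted p = 0.0231). That call was lost without clementine library 1 or 3 (adjusted p = 0.0619 and 0.0731) and without kumquat library 2 or 3 (0.0747 and 0.0732). Ciclev10012275m, a hypothetical protein with no KEGG name, was listed at 0 in clementine and was at 34.84, 41.4 and 26.77 FPKM in kumquat. Its partner Ciclev10012130m averaged 40.5 ± 3.0 FPKM in clementine and 37.7 ± 9.62 FPKM in kumquat and was not called (limma adjusted p = 0.563). Its log2 change was -0.13, and 0.09 without kumquat library 2. The match sums had ratios of 1.25 and 1.78.

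Ciclev10014813m is named DELLA protein, the family of nuclear repressors that gibberellin removes. It was listed at 0 in clementine and was at 22.23, 22.6 and 53.81 FPKM in kumquat, with the last library apart from the others. Its partner Ciclev10014811m was at 74.73, 77.73 and 82.68 FPKM in clementine and at 129.8, 152.7 and 112.47 FPKM in kumquat, and the groups did not overlap (log2 change 0.73, SE 0.108, limma adjusted p = 0.000867). Of the 10 matches with a partner at 10 FPKM or more in clementine, this was the 1 whose sum was at least 2-fold higher in kumquat, at 164.5 ± 11.7 against 78.4 ± 4.01 FPKM. Among the 31 tested KEGG peers, the other models with the DELLA identifier, 10 were higher and 13 lower in kumquat. This identifier is a family assignment held by 44 models. Some of them carry another name too, such as Ciclev10004502m with that of an RNA helicase.

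The last pair of matches had little or no transcript in clementine in any model. Ciclev10020870m, named caffeic acid O-methyltransferase, was at 0.29, 0.3 and 0.15 FPKM in clementine and at 18.0, 15.11 and 12.99 FPKM in kumquat, and its partner Ciclev10020873m rose from 3.41, 2.05 and 2.56 FPKM to 11.57, 20.92 and 19.41 FPKM (log2 change 2.29, limma adjusted p = 0.000163). The match sum was 11.2 times as high in kumquat, whereas all 58 models of the caffeic acid methyltransferase name summed to 4216.3 ± 157.2 FPKM in clementine and 1886.7 ± 66.3 FPKM in kumquat. Ciclev10001588m matches a predicted glutelin-like protein of sweet orange, glutelins being seed storage proteins of cereals. The 3 seed models were higher in kumquat as given above, and the part of seed tissue was not tested. It was at 0, 0.1 and 0 FPKM in clementine and at 20.94, 28.52 and 28.17 FPKM in kumquat. Its partner Ciclev10001547m was listed at 0 in clementine and was at 19.05, 7.85 and 8.44 FPKM in kumquat (limma adjusted p = 6.64e-05), below the kumquat minimum in 2 libraries.

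The remaining models without a KEGG name or GO term were alone in their match. Ciclev10027444m was at 23.61, 19.64 and 26.02 FPKM, Ciclev10023629m at 18.16, 20.56 and 21.18 FPKM and Ciclev10013964m at 11.94, 16.48 and 18.5 FPKM in kumquat, and all 3 were listed at 0 in clementine. Ciclev10006191m was at 0, 0.39 and 0 FPKM in clementine and at 15.91, 15.94 and 14.94 FPKM in kumquat.

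All 38 kumquat-only models with a KEGG name had at least 1 KEGG peer at a mean of 10 FPKM or more in clementine, including all 28 that were alone in their protein match. The same held for 85% of all models with a KEGG identifier. Of 1029 KEGG peers 681 were tested, and 258 were higher in kumquat (37.9%, against 29.9% of all tested models), 230 lower (33.8%, against 27.1%) and 193 not called, with a median log2 change of 0.03. The 38 models were also placed within their families. A median of 4.7% of the family's kumquat FPKM came from the kumquat-only model, with under 10% in 29 models, at least 10% in 9 and at least 50% in 3. Their families were large, with a median of 29 models, and 31 of the 38 (81.6%) were among the 10 most abundant models of their family in kumquat and 6 (15.8%) were the most abundant. For 7590 other KEGG-annotated models in the same range of kumquat levels, the median share was 14.7%, the median family had 11 models, 85.6% were among the top 10 and 31.8% ranked first. This difference was not tested. The 3 with at least 50% were the glycosyltransferases Ciclev10033373m and Ciclev10017784m and the aldehyde decarbonylase Ciclev10011291m.

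**Figure D3:**
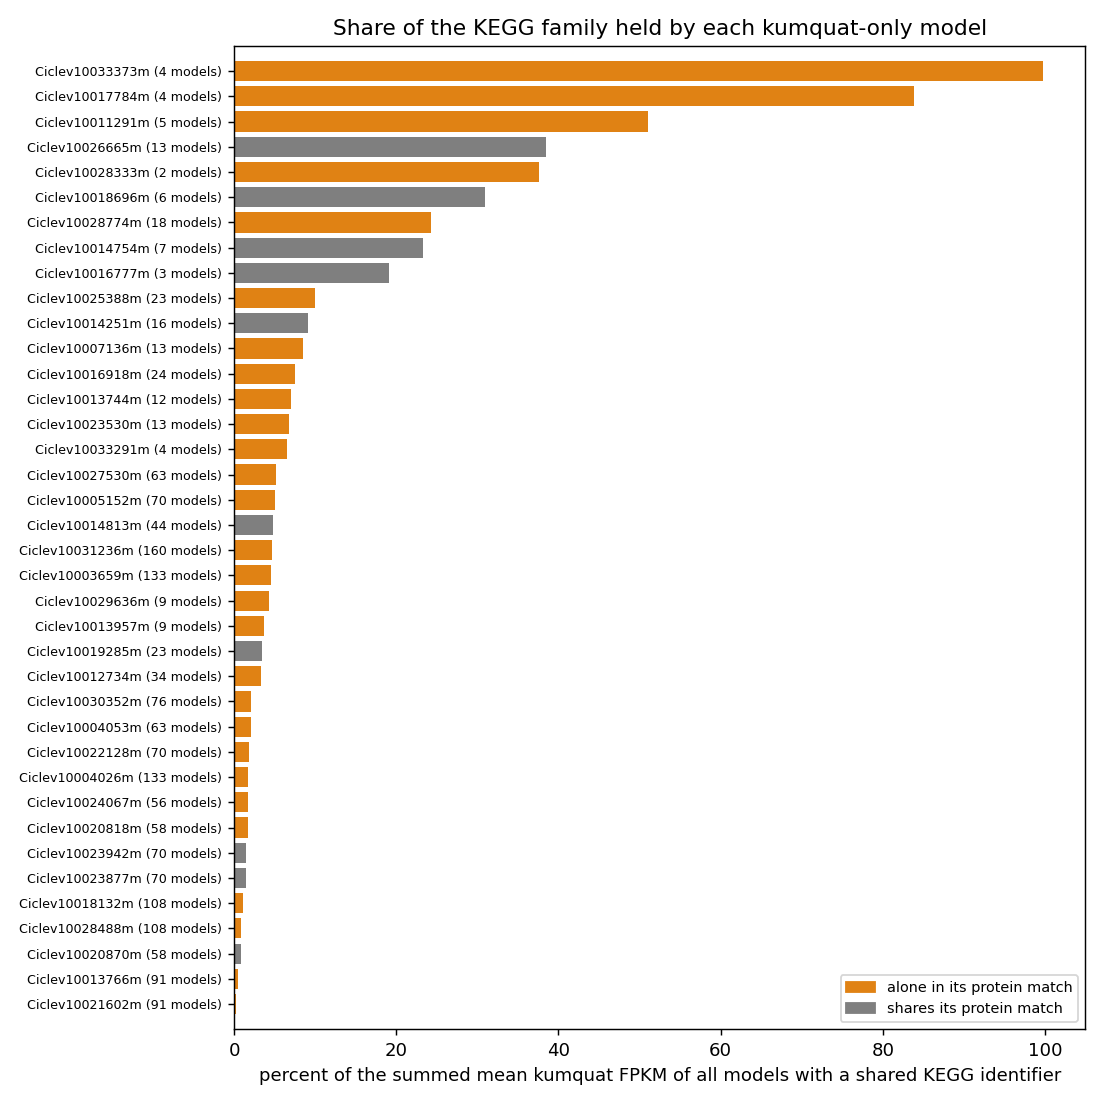
Percent of the summed mean kumquat FPKM of all models that share a KEGG identifier which each of the 38 KEGG-named kumquat-only models held, with the number of models of the family in brackets. Orange bars are models alone in their protein match and grey bars models that share it. The top 3 bars, all orange, stand at 99.8%, 83.9% and 51.1%, and most others lie under 10%.

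Spread among the kumquat libraries was not part of the rule beyond its minimum. The median coefficient of variation of the 47 models over the 3 kumquat libraries was 7.99%, against 8.08% for 9859 models in the same range of kumquat levels. It was 6.1% for models alone in their match and 10.7% for those that shared it. The largest values were 55.1% in the DELLA model Ciclev10014813m, 42.3% in the L37e model Ciclev10033291m, 24.8% in the ankyrin repeat model Ciclev10004026m, 22.5% in the helicase Ciclev10018696m and 21.5% in Ciclev10013964m. The highest library was at least 1.5 times the lowest in 7 models and at least 2 times in 2. The lowest value was in the first kumquat library for 22 models, in the second for 10 and in the last for 15. The highest was in the first for 12, in the second for 20 and in the last for 15. Other models were not counted in this way, so whether this is particular to the 47 is not known. The first library also had the lowest relative depth, and the part of depth was not tested.

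For the 12 models with a partner outside the set, the match sum varied less between kumquat libraries than the kumquat-only model did in 10 cases. The median coefficient of variation was 14.1% for the models and 6.25% for their match sums. A sum can vary less than its parts by averaging alone, and other matches were not examined for comparison. The DELLA match is the clearest example: its sums of 152.0, 175.3 and 166.3 FPKM varied by 7.13%, while the kumquat-only model varied by 55.1%. In Ciclev10012275m, which was lowest in kumquat library 3 where its partner was highest, the sums of 76.78, 68.09 and 71.24 FPKM varied by 6.11% against 21.3%. The exceptions were Ciclev10014251m, at 11.1% for the sum against 4.31%, and Ciclev10016777m, at 4.05% against 2.81%. How the authors' counting divides reads between models of a match is not stated in the labels or the table, so the split between such models is uncertain, and its part in the levels above was not tested.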

How the data were processed

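Total RNA was extracted with TRIzol and treated with DNase, and libraries were sequenced on an Illumina instrument, per the labels' protocols. HISAT, StringTie and DESeq2 are listed, per the submitters' processing notes, without versions or roles. The genome build is not given in the sources used here, and neither coordinates nor sequences are printed. The authors deposited 1 table of FPKM per gene model, with GO terms, KEGG names and the best protein match.

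A protein match was the locus named in the match text, or otherwise its accession. Species were compared on log2(FPKM + 1) by limma 3.58.1 (R 4.3.3; mean-dependent prior, two-sided, no covariate) over the 22050 models that reached 1 FPKM in 3 or more libraries, and p-values were adjusted by Benjamini-Hochberg over all of them; a call needs an adjusted p under 0.05. Fold changes of low models are understated on this scale. The fit was tested on simulated data. Tables and figures were made with Python 3.11.15, pandas 2.3.3, numpy 2.4.6 and matplotlib 3.10.9. Intervals from counting error cannot be given, since FPKM hold no counts.

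The models, lists and functional classes were chosen with earlier results of these data known. Named models were the 12 most abundant, the 8 most abundant with a KEGG name and no partner, the 8 most abundant with a partner at 10 FPKM in clementine, the most abundant of each class, the 3 nearest each limit on either side and the 5 most variable, and the remaining members were then described as well. Alternatives were other limits of the rule, pseudocounts, filters, scaling, a replicate term, another definition of the match and leaving out each library.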

Additional observations from a re-analysis of the deposited data

How the results depend on the processing

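The number of kumquat-only models rests on the limits of the rule: it was 101 with a kumquat minimum of 5 FPKM, 29 with a minimum of 20 FPKM, 24 with a clementine maximum of 0.1 FPKM, 71 with a maximum of 1 FPKM and 18 when all clementine libraries had to be listed at 0. Median scaling gave 44 and leaving out single libraries 47 to 61. Match sums that differed by less than 2-fold numbered 9 in every leave-one-out and 6 at a limit of 1.5-fold. Partners called higher numbered 4 to 5 and lower 8 to 9 with single libraries left out. With the match taken by accession alone, an alternative chosen after seeing the data, 10 models shared a match instead of 14, and 4 partners were higher and 5 lower. Leaving out single libraries gave 236 to 243 higher and 209 to 227 lower KEGG peers, and 11095 to 12058 called models in all. Replicate numbers are shared by both species, and the labels do not say whether same-numbered libraries belong together. The deviations of same-numbered libraries correlated at 0.12, 0.04 and 0.07, and those of different numbers at -0.08 to 0.02. These values are small, but each same-numbered value was above all the others. A batch shared by same-numbered libraries was not tested. With the replicate block, 12944 models were called, partners were 4 higher and 9 lower, and peers 256 higher and 234 lower. Of 51 partners and peers followed singly through 557 comparisons, 539 kept their direction and call, 14 lost the call and 3 gained it. In the remaining 1 the direction turned, for the uncalled partner Ciclev10012130m, whose log2 change ran from -0.26 to 0.09 with single libraries left out and was 0.09 without kumquat library 2 (adjusted p = 0.398); the cause was not tested. The calls gained were those of the ribosomal peers Ciclev10006271m (adjusted p = 0.00246 with the block) and Ciclev10026841m (0.00117 with the block and 0.0256 without the first kumquat library). With the block the minor partner Ciclev10026819m lost its call (adjusted p = 0.057). Depth in reads is unknown, so it cannot be said how many reads lie behind a low clementine value.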
